A study of Homo sapiens with 4 samples.

Results

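The 10 genes described here set the restriction point of the cell cycle, the moment in G1 after which a cell divides without further growth signals. They were taken by gene name from the authors' deposited table of 57773 genes, and comprise the E cyclin genes CCNE1 and CCNE2, the D cyclin genes CCND1, CCND2 and CCND3, the cyclin-dependent kinase genes CDK2, CDK4 and CDK6, the retinoblastoma gene RB1 and the transcription factor gene E2F1. All 10 had a fold change in the authors' deposited table and a group mean of at least 1 RPKM (reads scaled to transcript length and library size), a level reached by 11324 genes.

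D cyclins are made in response to growth signals and activate CDK4 and CDK6, which begin to phosphorylate the RB protein. RB holds E2F transcription factors inactive until it is phosphorylated. Freed E2F switches on the E cyclins, whose partner CDK2 phosphorylates RB further, and the genes of DNA synthesis. In multiple myeloma, a cancer of antibody-secreting plasma cells, a D cyclin is commonly overexpressed, often because a chromosomal translocation places it or its activator under an immunoglobulin enhancer.

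RNA was sequenced from the established human myeloma lines KMS12PE and KMS11 after exposure to 1 µM OSSL_325096, a compound given only by this code, or to its solvent DMSO. There were 2 libraries for OSSL_325096 and 2 for DMSO, in each case 1 from KMS12PE and 1 from KMS11. As background, KMS12PE carries a translocation that drives CCND1, and KMS11 carries translocations that drive FGFR3 with NSD2 and MAF, the last being an activator of CCND2. How long the cells were exposed is not given in the sources used.

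For each gene the data held a log2 fold change over both lines, a p-value and the mean of whichever treatment group had the higher mean, so values of single libraries, the depth of each and the change in each line were not analysed here. A positive log2 fold change means a higher level with OSSL_325096, following the order of the treatments in the title of the table. The authors' false discovery rate was 0.999995 for each of the 10 genes in the authors' deposited table, and the Benjamini-Hochberg p over the 11324 genes, recomputed from the authors' p-values, was 0.999909 for each of them. Of all 11324 genes 0 passed an adjusted p of 0.05 (0%) and 5 had an unadjusted p below it (0.0442%), none of them among the 10. Over all 23130 genes with a fold change, 9 had an unadjusted p under 0.05, where 1156.5 would be expected by chance. The authors' p-values thus ran larger than chance alone would give, so errors and intervals implied from them may be too wide. Plasma cell markers were present, with 7 of 7 genes between 11.4 and 180 RPKM in the authors' deposited table, led by XBP1 and IRF4. Of 8 marker genes of other cell types, 7 lay under 1 RPKM in the authors' deposited table and MS4A1, the B cell gene of CD20, was listed at 0. The exception was EPCAM, an epithelial adhesion gene, at 15.8 RPKM in the authors' deposited table.

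The E cyclin genes had the lowest fold changes of the set. CCNE1 (ENSG00000105173; hg19 chromosome 19, 30302805 to 30315215, plus strand), with a group mean of 9.07 RPKM, was given a log2 fold change of -1.03 by the authors' deposited table, a level 2.05-fold lower with OSSL_325096 than with DMSO. CCNE2 (ENSG00000175305; chromosome 8, 95891998 to 95908906, minus strand), with a group mean of 5.38 RPKM, had -1.19 in the authors' deposited table, or 2.28-fold lower. Both lay among the lowest 1% of genes by fold change: CCNE2 was the 76th and CCNE1 the 112th lowest of 11324. Of the 2415 genes with group means of 5 to 10 RPKM, the range that holds both, 14 were as low as CCNE1 and 9 as low as CCNE2, each count including the gene itself.

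Neither difference was larger than the error implied by its p-value. The authors' table gives no standard error, so one was implied from each fold change and its p-value, on the assumption of a two-sided normal test. It was 1.23 on the log2 scale for CCNE1 (95% interval of the log2 fold change -3.45 to 1.38, unadjusted p = 0.402 in the authors' deposited table) and 1.35 for CCNE2 (-3.83 to 1.45, p = 0.377). At these errors a 5.34-fold difference in CCNE1 and a 6.22-fold difference in CCNE2 would have been needed for an unadjusted p of 0.05. In bulk RNA, less cyclin E mRNA per cell and fewer cells in the phase that makes it cannot be told apart.

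The CCNE2 value carries a further uncertainty from its neighbour. In the GENCODE 44 annotation, 37.05% of the exonic bases of CCNE2 are also exonic in INTS8 on the opposite strand, a subunit gene of the Integrator complex. The authors' deposited table put INTS8 at 8.31 RPKM, with a log2 fold change of -0.0087. The labels name no step that marks strand, so whether reads in the shared bases could be assigned to one of the genes is not known. The part of such reads in the CCNE2 value was not tested, and which annotation the authors used is not given. CCNE1 overlapped no other gene of the table.

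The start region of CCNE1 is shown because CCNE1 is a textbook target of E2F. The 250 bases before its RefSeq start (GRCh38.p14, chr19:29811741-29811990, plus strand), printed 5′ to 3′, are 81.2% G and C:
CCNE1: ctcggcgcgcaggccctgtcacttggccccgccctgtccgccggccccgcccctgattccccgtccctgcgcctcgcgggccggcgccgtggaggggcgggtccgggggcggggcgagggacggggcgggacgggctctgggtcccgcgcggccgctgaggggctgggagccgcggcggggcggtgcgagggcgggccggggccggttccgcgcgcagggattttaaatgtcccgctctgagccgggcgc
E2F sites were searched as TTTCCCGC, TTTCGCGC, TTTGCCGC or TTTGGCGC on both strands, in windows that also held the 50 bases after the start. The CCNE1 window held none of these letters, and 3.31% of all 35116 RefSeq windows of 300 bases did. Only these exact letters were searched, so an E2F site of other letters would have been missed.

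**Figure D1:**
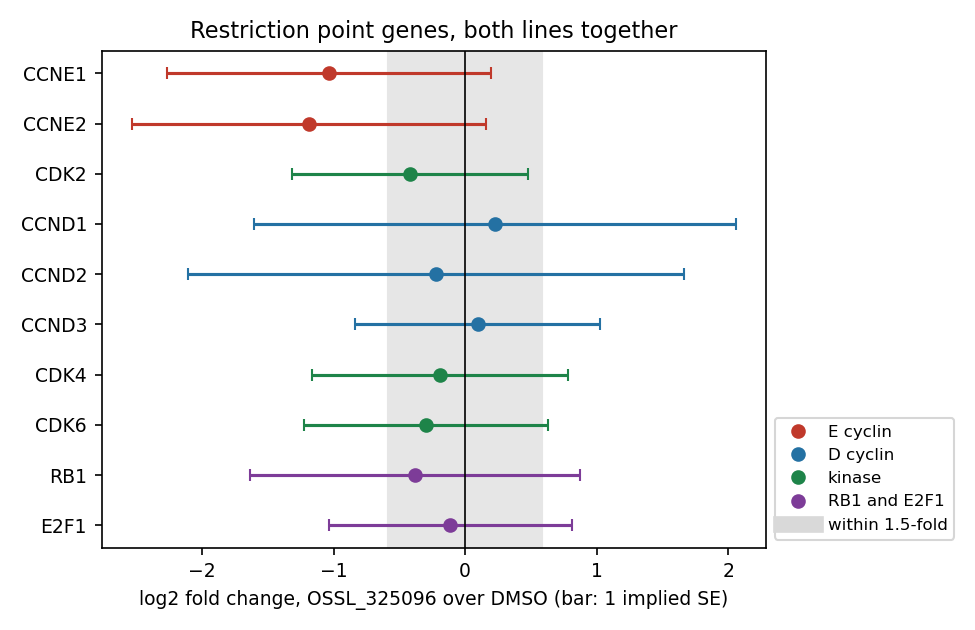
The 10 restriction point genes (vertical axis) and their log2 fold change with OSSL_325096 relative to DMSO (horizontal axis), coloured by role, with bars of 1 implied SE and the range within 1.5-fold shaded. CCNE1 at -1.03 and CCNE2 at -1.19 in the authors' deposited table are the points outside the shaded range, and every bar spans 0.

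CDK2, the kinase partner of the E cyclins (ENSG00000123374; chromosome 12, 56360553 to 56366568, plus strand), was expressed at a group mean of 39.2 RPKM, 4.32 times that of CCNE1. The authors' deposited table gave it a log2 fold change of -0.42, or 1.34-fold lower, with an implied SE of 0.90 and a 95% interval of -2.18 to 1.34. The implied SE was small for this table, at the 9.5th percentile of all genes, and 9.66% of genes had a lower fold change. PMEL, a melanosome gene on the opposite strand that covers all of CDK2, was at 0.88 RPKM in the authors' deposited table, and shares 2.29% of the exonic bases of CDK2. RP11-973D8.4, also on the opposite strand, shares 14.5% of them and was at 0.080 RPKM in the authors' deposited table.

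The D cyclins differed far more in level than in fold change. CCND1 (ENSG00000110092; chromosome 11, 69455855 to 69469242, plus strand) was the highest of the 10 genes, at 126 RPKM as group mean in the authors' deposited table, with 0.23 as its log2 fold change. CCND2 (ENSG00000118971; chromosome 12, 4382938 to 4414516, plus strand) was listed in the authors' deposited table at 38.5 RPKM, with -0.22 as its log2 fold change. CCND3 (ENSG00000112576; chromosome 6, 41902671 to 42018095, minus strand), which neither line's translocation targets, was listed at 8.57 RPKM in the authors' deposited table, with 0.094 as its log2 fold change. The group mean of CCND1 was 3.26 times that of CCND2 and 14.7 times that of CCND3, on a scale that takes length into account. Each mean is over both lines and of the treatment with the higher mean. The ratios therefore describe neither line alone and can set different treatments against each other. All 3 D cyclins lay within 1.5-fold of no difference, as did 10203 of all 11324 genes. Unadjusted p-values were 0.901, 0.907 and 0.919 for CCND1, CCND2 and CCND3 in the authors' deposited table. Of the exonic bases of CCND1, 10.4% are shared with ORAOV1 on the opposite strand (2.45 RPKM, log2 fold change 0.52 in the authors' deposited table). CCND2 overlaps RP11-264F23.3 on the opposite strand (0.37 RPKM, log2 fold change -4.33 in the authors' deposited table). Their shared exonic bases were not determined.

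The errors of the D cyclins separated the translocation-linked pair from CCND3. The implied SE was 1.83 for CCND1 and 1.89 for CCND2, at the 92.7th and 95.3rd percentiles of all genes, against 0.93 for CCND3, at the 17.7th. The other 8 genes of the set ran from 0.90 to 1.35, and the median over all genes was 1.10. Other genes that mark one of the lines had implied SEs of 2.002 (FGFR3), 1.94 (MAF), 1.58 (ITGB7, an integrin gene that MAF activates) and 1.04 (WHSC1, now NSD2). For CCND1 the 95% interval was -3.36 to 3.82 and for CCND2 -3.92 to 3.48 on the log2 scale, so that differences under 12.0-fold in CCND1 and 13.0-fold in CCND2 could not have reached an unadjusted p of 0.05. Levels in each line were not analysed here, and the part of the line difference in these errors was not tested.

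**Figure D2:**
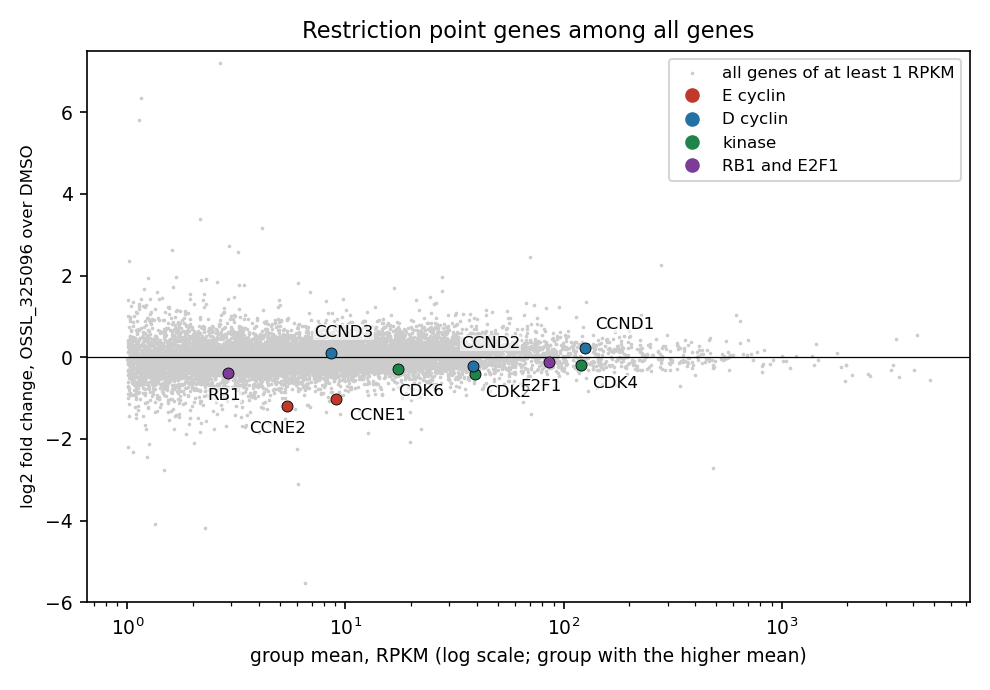
Group mean in RPKM (horizontal axis, log scale) against the log2 fold change with OSSL_325096 relative to DMSO (vertical axis) for the 10 restriction point genes, coloured by role, and all 11324 genes of at least 1 RPKM in grey. CCND1 and CDK4 stand at the high end of expression, at 126 and 121 RPKM in the authors' deposited table, and CCNE1 and CCNE2 at the lower edge of the grey cloud.

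CDK4 and CDK6, the D cyclin kinases, were both expressed, CDK4 at 6.93 times the group mean of CDK6. CDK4 (ENSG00000135446; chromosome 12, 58141510 to 58149796, minus strand) stood at 121 RPKM in the authors' deposited table, with -0.19 as its log2 fold change (implied SE 0.97, 95% interval -2.10 to 1.72). CDK6 (ENSG00000105810; chromosome 7, 92234235 to 92465908, minus strand) stood at 17.4 RPKM in the authors' deposited table, with -0.30 as its log2 fold change (implied SE 0.93, 95% interval -2.11 to 1.52). CDK2, CDK4 and CDK6 thus all had values below 0, each smaller than its implied SE. Of the exonic bases of CDK4, 44.2% are shared with TSPAN31, a tetraspanin gene on the opposite strand, which the authors' deposited table put at 6.40 RPKM, with -0.27 as its log2 fold change.

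CDK4 is a textbook target of MYC, which binds the E-box CACGTG, and its start region is shown for that reason. The 250 bases before its RefSeq start (GRCh38.p14, chr12:57752311-57752560, minus strand) are printed 5′ to 3′ with each E-box in capitals:
CDK4: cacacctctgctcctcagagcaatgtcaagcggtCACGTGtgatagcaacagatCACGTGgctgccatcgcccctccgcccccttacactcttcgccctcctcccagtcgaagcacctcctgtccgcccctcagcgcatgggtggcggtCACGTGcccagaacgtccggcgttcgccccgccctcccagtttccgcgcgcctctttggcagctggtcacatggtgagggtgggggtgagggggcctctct
The E-boxes begin 216, 196 and 101 bases before the start. An E-box was present in 7.26% of the 35116 windows, and the CDK4 window held 3. Among the 9 RefSeq windows that matched 6 of the 10 genes (CCNE1, CCND3, CDK4, CDK6, RB1 and E2F1), the other one with an E-box belonged to CDK6, 31 bases after the start. CCNE2, CCND1, CCND2 and CDK2 had no entry.

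RB1, the brake of the pathway (ENSG00000139687; chromosome 13, 48877887 to 49056122, plus strand), had the lowest expression of the set, with a group mean of 2.91 RPKM in the authors' deposited table. Its log2 fold change there was -0.38 (implied SE 1.254, 95% interval -2.84 to 2.08). RB1 mRNA was thus detected, and its difference between treatments was smaller than its error. E2F1 (ENSG00000101412; chromosome 20, 32263489 to 32274210, minus strand), the transcription factor that RB restrains, stood at 86.0 RPKM in the authors' deposited table, with -0.11 as its log2 fold change (implied SE 0.92, 95% interval -1.93 to 1.70). The group mean of E2F1 was 29.6 times that of RB1, and E2F1 overlapped no other gene of the table.

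E2F1 is known to be switched on by E2F factors themselves, and the letters searched for above occur in its start region. The 250 bases before the RefSeq start (GRCh38.p14, chr20:33686386-33686635, minus strand) are printed 5′ to 3′ with both matches in capitals, the first being TTTGCCGC read on the other strand:
E2F1: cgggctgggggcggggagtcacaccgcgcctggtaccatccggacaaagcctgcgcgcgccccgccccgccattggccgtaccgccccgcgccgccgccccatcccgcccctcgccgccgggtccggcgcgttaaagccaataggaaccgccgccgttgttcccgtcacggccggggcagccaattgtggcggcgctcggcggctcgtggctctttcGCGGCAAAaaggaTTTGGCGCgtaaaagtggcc
The matches begin 33 and 20 bases before the start. The windows of the other 5 genes held no such match. For RB1 that says nothing about its main promoter, which was not searched, since its one RefSeq window lies at a start 173 kb inside the gene on GRCh38.p14. The log2 fold change of E2F1, -0.11, stood against -1.03 for CCNE1 in the authors' deposited table, and a match of letters says nothing about binding.

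Over the whole set, 8 of 10 genes had values below 0 and 2, CCND1 and CCND3, above (10 below once the GC trend described next was removed), where 49.0% of all 11324 genes were below 0. At least 1.5-fold lower were 2 of the 10 genes, CCNE1 and CCNE2, against 4.95% of all genes, and both were also at least 2-fold lower, against 1.09%. At a log2 fold change of -0.32 or lower were 4 of the 10, CDK2 and RB1 being added, against 15.2% of all genes. At least 1.5-fold higher were 0 of the 10, against 4.95% of all genes, and the 2-fold mark, which 0.989% of all genes reached upward, was likewise reached by 0. The median log2 fold change of the set was -0.26, with a range of -1.19 to 0.23, and the median over all genes was 0.0087. No test of the set was made, and 0 of its genes passed the authors' test adjusted over all genes. In order of expression the set ran CCND1, CDK4, E2F1, CDK2, CCND2, CDK6, CCNE1, CCND3, CCNE2 and RB1, a 43.2-fold span of group means. These means can come from different treatments, since each is of the group with the higher mean. The spread of these levels between libraries was not analysed here, so the order of close neighbours such as CCND1 and CDK4, CDK2 and CCND2, or CCNE1 and CCND3, is uncertain.

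Fold changes in this table followed the GC content of the transcripts, and the 10 genes span that range. Across 11104 genes, which are not independent replicates and share the same libraries, the Spearman correlation of fold change with GC content was 0.47, and the median log2 fold change was 0.23 in the highest of 5 equal classes of GC content and -0.17 in the lowest. CCNE2 and RB1, at 38.7% and 39.5% GC, were in the lowest class, while CCND1, E2F1 and CCND3, at 63.7%, 61.6% and 59.5%, were in the highest class. A regression on GC content, transcript length and expression put CCNE2 at -0.20 and CCNE1 at 0.0026 from these properties alone. With that trend removed, CCNE1 stood at -1.04 and CCNE2 at -0.99, so that CCNE1 was the 86th and CCNE2 the 102nd lowest of the 11104 genes. CCND1 came to -0.026 and CCND3 to -0.090, both on the other side of 0 from their deposited values. E2F1 came to -0.37, CDK4 to -0.35 and CDK2 to -0.49, each farther below 0 than as deposited, and RB1 to -0.16, nearer to 0. All 10 genes were then below 0, where 49.8% of the genes were, with CCNE1 and CCNE2 again the 2 that were at least 1.5-fold lower, against 3.96% of the genes, and 0 that were at least 1.5-fold higher, against 3.43%. GC content and length are medians over the annotated transcripts of a gene, which include short partial ones. The median length was 560.5 bases for CCND1, 592 for CCND3, 658 for RB1 and 728 for CCNE2. The GC contents, the GC classes and the adjusted values depend on that choice.

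**Figure D3:**
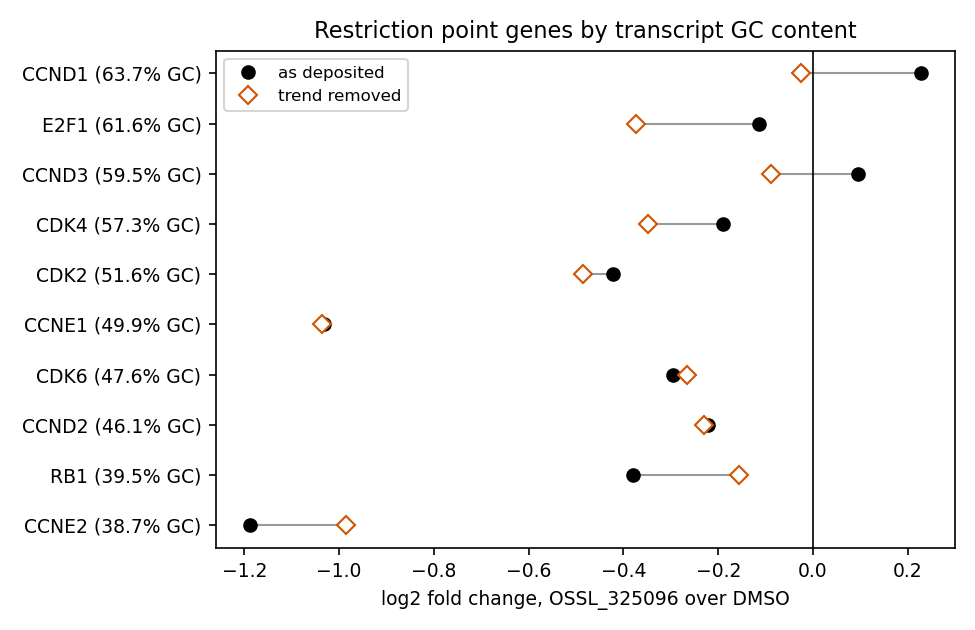
The 10 restriction point genes and their log2 fold change with OSSL_325096 relative to DMSO (horizontal axis), ordered by the GC content of their transcripts (vertical axis, highest at the top), as deposited (black) and after removal of the trend with GC content, length and level (open diamonds). CCND1, E2F1, CCND3 and CDK4, the 4 highest in GC content, lie farther left once the trend is removed, while CCNE1 stays at -1.04.

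Among cyclin genes at large, the E cyclins had the lowest values. Of 25 genes in the table whose symbol is CCN with 1 further letter and a number where there is one, 23 reached 1 RPKM. CCNE2 and CCNE1 were the lowest of the 23, and the only ones at least 1.5-fold lower, against 4.95% of all genes. The next, CCNG1, a target of p53, had -0.53 in the authors' deposited table. At the other end stood CCNB1, the B cyclin that drives mitosis, at 1.20, followed in the authors' deposited table by CCNF at 0.57 and by CCNJ and CCNA2, both at 0.52. At least 1.5-fold higher was 1 of the 23, CCNB1, against 4.95% of all genes. The 18 cyclin genes outside the set had a median of 0.015, with 9 below 0 and 9 above. Of 19 CDK genes, 16 reached 1 RPKM, and the 13 outside the set had a median of 0.048, while CDK2, CDK6 and CDK4 ranked 1, 3 and 5 from the lowest of the 16. All 16 CDK genes lay within 1.5-fold of no difference, between -0.42 and 0.38 in the authors' deposited table. So did 10203 of all 11324 genes. These families were set after the values were seen.

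**Figure D4:**
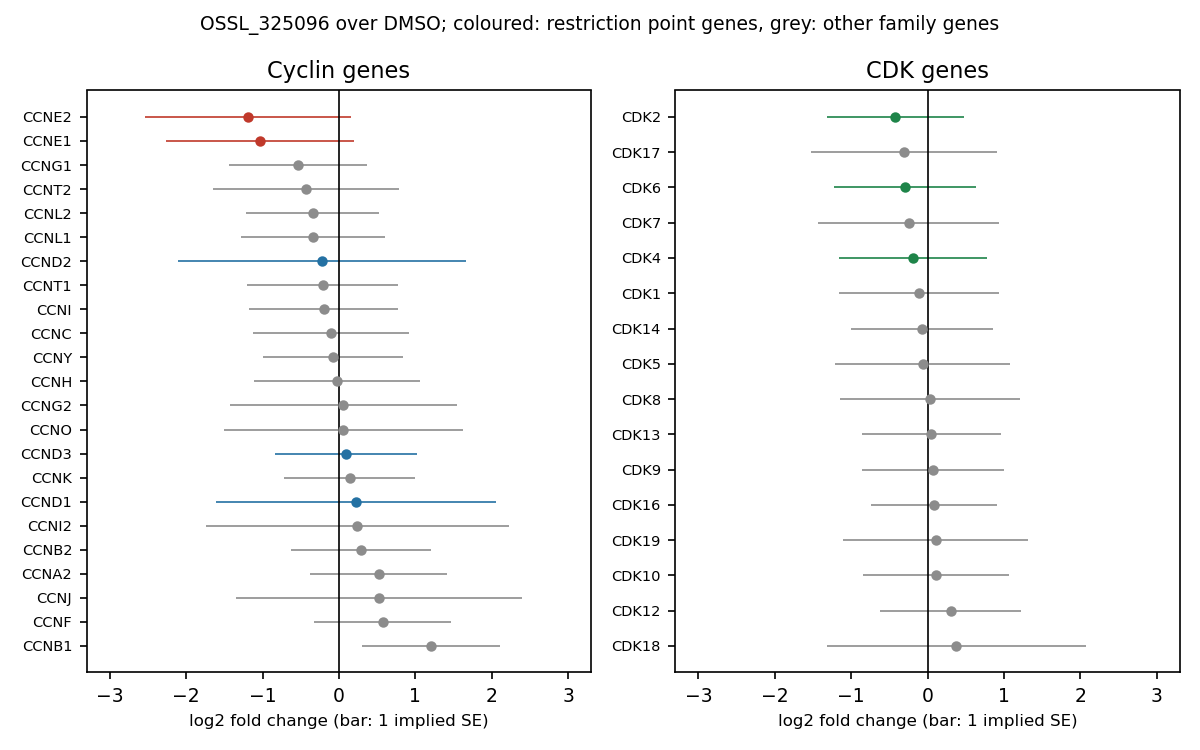
Log2 fold change with OSSL_325096 relative to DMSO (horizontal axes) for 23 cyclin genes (left) and 16 CDK genes (right) of at least 1 RPKM, ordered by value, with bars of 1 implied SE. Restriction point genes are coloured, with CCNE2 at -1.19 and CCNE1 at -1.03 at the low end of the cyclins and CDK2 at -0.42 at the low end of the CDKs in the authors' deposited table.

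The genes that the restriction point controls were mostly below 0 by small amounts. Of 26 E2F target genes of S phase entry, 23 had values below 0 and 3 above, where 49.0% of all 11324 genes were below 0. Their median log2 fold change was -0.32. At least 1.5-fold lower was 1 of the 26, against 4.95% of all genes, and 0 were at least 1.5-fold higher, against 4.95%. The 1 lower gene was PRIM1, a subunit of the primase that starts DNA strands, at -0.97 in the authors' deposited table (22.0 RPKM, implied SE 1.01). RRM2, of ribonucleotide reductase, had -0.54 and CCNA2, the A cyclin gene of S phase and G2, had 0.52 in the authors' deposited table. The other 25 targets lay between -0.54 and 0.52 in the authors' deposited table.

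The partners of RB1 and E2F1 did not share one direction. Of 11 listed genes, 10 were analysed here, and 7 of these were below 0, with a median of -0.028. Below 0 were 49.0% of all 11324 genes. At least 1.5-fold lower were 2 of the 10, against 4.95% of all genes, and 0 were at least 1.5-fold higher, against 4.95%. E2F7 and E2F8, which encode repressors that E2F itself induces, had -1.07 and -0.66 in the authors' deposited table, with implied SEs of 1.43 and 1.32 at group means of 2.14 and 3.79 RPKM. E2F4, which encodes the E2F that acts with the RB relatives in resting cells, had 0.57 in the authors' deposited table, at 28.8 RPKM. E2F2 and E2F3, the closest relatives of E2F1, had -0.15 and -0.049 in the authors' deposited table, near the -0.11 of E2F1.

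Regulators of the cyclins and kinases were spread around 0. Of 16 listed genes for activation, folding and turnover, 15 were analysed here, 9 of them below 0, with a median of -0.12. Below 0 were 49.0% of all 11324 genes. At least 1.5-fold lower were 2 of the 15, against 4.95% of all genes, and 0 were at least 1.5-fold higher, against 4.95%. SKP2, which targets the inhibitor p27 for degradation, had -0.83 in the authors' deposited table (31.6 RPKM, implied SE 0.92), and FBXO4, an F-box gene linked to cyclin D1 turnover, had -0.66 (2.34 RPKM, implied SE 1.77). WEE1, which inhibits CDKs, had -0.41 in the authors' deposited table. FBXW7, whose product marks cyclin E for degradation, had -0.20, and AMBRA1, whose product marks the D cyclins, had 0.36 in the authors' deposited table. Of the 7 CDK inhibitor genes 4 were below 0 and 3 above, with a median of -0.041. At least 1.5-fold higher was 1 of the 7, and 0 were at least 1.5-fold lower, each against 4.95% of all genes. CDKN2C, which encodes the CDK4 and CDK6 inhibitor p18, had 0.60 with an implied SE of 1.81, CDKN1C had 0.31 and CDKN2B had -0.29 in the authors' deposited table. In all 4 lists together, as in the set, 0 genes had an adjusted or unadjusted p under 0.05.

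**Figure D5:**
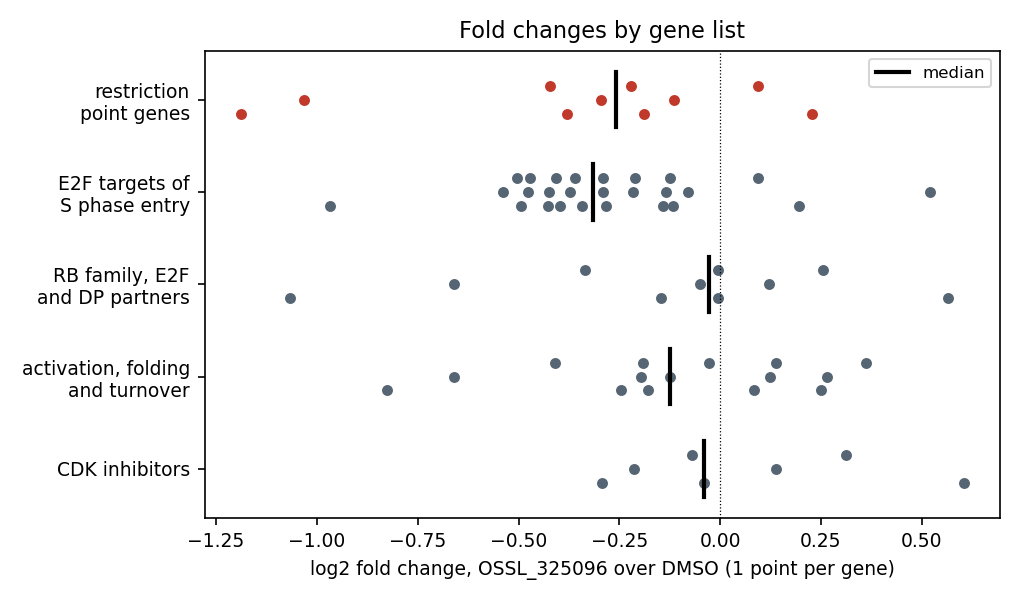
Log2 fold change with OSSL_325096 relative to DMSO (horizontal axis, 1 point per gene of at least 1 RPKM) for the restriction point genes and 4 lists of the same pathway (vertical axis); vertical bars are medians. The medians are -0.26 for the restriction point genes and -0.32 for the E2F targets, and lie between -0.12 and -0.028 for the other lists.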

How the data were processed

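RNA was measured by sequencing in 4 libraries. Per the labels' protocols, mRNA was captured with oligo(dT) beads, fragmented and copied with random hexamers; no step that marks strand is named. Per the series' design text, the software Biomedical Genomics Workbench 5 mapped the reads to hg19, computed RPKM and compared the treatments. How reads were counted and scaled, which annotation was used and which model was fitted are not given in the sources used. The table held 6 value columns, of which 0 belong to a single library. The RPKM values, deposited by the authors, are means of whichever treatment group had more. The authors deposited a log2 fold change and, as a signed fold score, the same quantity again. They also deposited 3 p-value columns: unadjusted, false discovery rate and Bonferroni (the authors' test is not named). With 2 libraries per treatment from different lines, and no word on separate cultures, the p-values rest on these 4 libraries alone. Which spread they measure cannot be said, since the model is not given.

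A minimum of 1 RPKM in the group mean was applied, and Benjamini-Hochberg p-values were recomputed over the genes that passed. To imply an SE, the size of the log2 fold change was divided by the two-sided normal quantile for its p-value, which is exact only for a two-sided normal test. The trend was fitted with powers up to 3 of GC content, log2 length and log2 RPKM, with medians over transcripts of GENCODE 44 mapped to GRCh37 (98.1% of genes kept, 10 of 10 of the set), and explained 15.8% of the variance. The adjustment and the trend fit were checked on simulated data with independent noise and a known error. That error was smaller than the median implied SE of 1.10, so the check does not show how either step behaves in this table. The planned limma fit, leaving out libraries, blocking on the line and other pseudocounts need values of single libraries and were replaced by the deposited comparison. Named genes are the whole set, marker genes, and in each list the 3 largest absolute fold changes and those past 1.5-fold; FBXW7, AMBRA1, E2F2, E2F3, the overlapping genes and the wider families fall outside that rule and were chosen after their values were seen. The set and the lists were chosen with earlier results of these data known. Promoter windows are from RefSeq (GRCh38.p14), a build other than that of the table. Python 3.11.15, pandas 2.3.3, numpy 2.4.6 and scipy 1.17.1 were used.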

Additional observations from a re-analysis of the deposited data

How the results depend on the processing

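No paired analysis was possible because the table holds no values of single libraries; for the same reason leaving out a library and other pseudocounts were not run. CCNE1 and CCNE2 were at least 1.5-fold lower with no minimum on RPKM, with a minimum of 5 RPKM, centred on the median of all genes and after removal of the GC, length and level trend. A minimum on RPKM leaves a deposited fold change as it is, and centring shifts it only by the median of 0.0087. Of these settings, only removal of the trend could therefore have changed the result for these genes. At the lower of the 2 other fold thresholds planned, a log2 fold change of -0.32, 4 of the 10 genes counted as lower, CDK2 and RB1 added, against 15.2% of all genes. RB1 does not reach 5 RPKM, so 9 genes entered that setting. With the trend removed, CCND3 (-0.090) and CCND1 (-0.026) changed sign. The adjusted p gave 0 calls in the set under all 4 alternatives run for it, unadjusted p included.

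The lists moved more. With the trend removed, 1 of the partners of RB1 and E2F1 was at least 1.5-fold lower, and at 5 RPKM 0 were. Of the genes for activation, folding and turnover, 1 was lower in either setting, and at 5 RPKM their median was 0.084, above 0. The CDK inhibitors had 0 genes at least 1.5-fold higher with the trend removed, and the E2F targets then had 2 lower and 1 higher. In that setting 3.96% of all genes were at least 1.5-fold lower and 3.43% at least 1.5-fold higher. Such shares were not computed at 5 RPKM. Except for the loss of genes at 5 RPKM, the cause of these shifts was not tested. The depth of each library is unknown, so no counting interval can be given.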

Other observations

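PAX5, a B cell transcription factor gene, and LYZ, the lysozyme gene of myeloid cells, both under 1 RPKM, were both given a log2 fold change of 2.33 by the authors' deposited table, with the same implied SE of 3.17. COL1A1, a collagen gene of fibroblasts, had 0.56 at 0.039 RPKM in the authors' deposited table. Such values at the floor of detection bear on none of the 10 genes, the lowest of which, RB1, was at 2.91 RPKM.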
